A study of Mus musculus with 12 samples.

Results

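Eosinophils are granulocytes of allergic and antiparasitic immunity, and a handful of transcripts identify them and their precursors. Expression of 7 such genes, Prg2, Epx, Prg3, Ear1, Ear2, Ear6 and Siglecf, was examined by RNA-seq in myeloid-derived suppressor cells (MDSCs) sorted from mouse liver tumors. The genes were taken by symbol, and all 7 were found among the 24346 genes listed for each of the 12 libraries. They had been picked with earlier results of these data in view, because some of them went in opposite directions in the monocytic (M-) and polymorphonuclear (PMN-) subsets, so their own values are given as a description without a test. The question was how far the response of these genes to inhibition of histone deacetylases (HDACs) 1 to 3 depended on the subset, and which other eosinophil genes followed the same course.

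All mice were wild type. Per the study's methods they were female C57BL/6J mice of 6 to 8 weeks with Hepa 1-6 cells, a mouse hepatoma line, growing in the liver, and they received vehicle, MS-275 or CXD101 by intraperitoneal injection. Both compounds are inhibitors of HDAC1, HDAC2 and HDAC3. The schedule described for the tumor-bearing mice was 5 mg/kg daily for 10 days from day 10, with collection on day 21. Tumor cells positive for CD11b were sorted by flow cytometry into M-MDSCs, which were Ly-6Chi and Ly-6G-, and PMN-MDSCs, which were Ly-6Cint and Ly-6G+. This gave 6 groups with 2 libraries each. The labels do not say that the 2 libraries of a group came from separate mice. The study's figure legend for the M-MDSC RNA-seq gives 2 biological replicates, without saying whether each was a single mouse or a pool. It says nothing of the kind for PMN-MDSCs. The p-values measure the spread between these libraries, which may be technical in PMN-MDSCs. Values are FPKM, fragments scaled to transcript length and to the size of the library. From the spacing of the lowest values, the libraries were estimated to hold 7640000 to 11600000 fragments, a step at which 67.9% to 72.9% of those values per library lay within 0.1 of a whole fragment. No library stood apart, and the replicates of a group correlated at a Pearson r of 0.995 to 0.996 over log2 values.

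An eosinophil stores its cationic proteins in specific granules. Prg2 encodes major basic protein, which makes up the crystalline core of these granules, and Prg3 encodes its homolog. Epx encodes eosinophil peroxidase, the counterpart of the myeloperoxidase (Mpo) of neutrophils. The Ear genes encode eosinophil-associated ribonucleases, a mouse family with many recent duplicates. Siglecf encodes a sialic acid-binding inhibitory receptor widely used to mark mouse eosinophils, although alveolar macrophages and some tumor neutrophils carry it too. The granule genes are switched on in progenitors under GATA and C/EBP factors, before the cell matures, and interleukin-5 then expands the lineage through its receptor Il5ra. Prg2 transcripts are also known from basophils.

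In GRCm38 (mm10) the members fell on 4 chromosomes. Prg2 (chromosome 2, 84980461 to 84983632, plus strand, 6 exons) and Prg3 (chromosome 2, 84988215 to 84993886, plus strand, 6 exons) were neighbors 4.58 kb apart, and their coding sequences were 63.1% identical. Epx (chromosome 11, 87864000 to 87875536, minus strand, 13 exons) lay 59.6 kb from Mpo, with 70.5% coding identity between both peroxidases. Ear1 (chromosome 14, 43818765 to 43875517, minus strand), Ear2 (chromosome 14, 44102654 to 44103534, plus strand) and Ear6 (chromosome 14, 51853699 to 51854643, plus strand) shared a chromosome, and Siglecf spanned 43351341 to 43359531 of chromosome 7 on the plus strand. Ear1 and Ear2 were 95.1% identical in their coding sequence, against 87.3% and 87.6% for either with Ear6. Of all 101-base windows of the longest coding transcript, 23.5% for Ear1 and 13.7% for Ear2 were found word for word in another annotated gene (Ear10 and the pseudogenes Ear-ps9 and Ear-ps2), so reads could be split between these genes in the authors' counting. The other 5 members had no such window. In the annotation Ear1 also overlaps pseudogenes on both strands, and Ear2 overlaps Gm49101 on the other strand.

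The promoters are shown because genes that are close in sequence differed in level. RefSeq (GRCm38.p6) held the 250 bases before the start of 6 of the 7 members, all except Prg2. RefSeq and the annotation used for the gene positions place some starts differently: the Ear1 start of RefSeq lies inside the longer Ear1 gene given above, and that of Ear6 lies downstream of the gene start given above. The GATA words AGATAA and also TGATAA, with their variants AGATAG and also TGATAG, were searched on both strands and are in capitals. One was found in the 6 promoters, in Prg3, where TGATAA read on the opposite strand begins 123 bases before the start, while 27.1% of the 27025 promoters of this length held at least 1 of the 4 words. Prg3 (chr2:84987965-84988214, plus), Epx (chr11:87875537-87875786, minus), Ear1 (chr14:43819640-43819889, minus) and Ear2 (chr14:44102404-44102653, plus) read as follows, 5′ to 3′.
Prg3: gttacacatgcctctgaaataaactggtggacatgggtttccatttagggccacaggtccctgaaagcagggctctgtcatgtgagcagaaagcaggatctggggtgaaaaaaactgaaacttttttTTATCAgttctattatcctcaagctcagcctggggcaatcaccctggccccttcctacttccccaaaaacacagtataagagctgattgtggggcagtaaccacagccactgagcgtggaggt
Epx: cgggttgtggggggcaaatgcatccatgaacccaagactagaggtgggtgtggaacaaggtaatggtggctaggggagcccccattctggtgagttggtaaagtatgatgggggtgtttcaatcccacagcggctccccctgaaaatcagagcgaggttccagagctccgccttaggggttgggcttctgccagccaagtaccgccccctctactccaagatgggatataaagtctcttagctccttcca
Ear1: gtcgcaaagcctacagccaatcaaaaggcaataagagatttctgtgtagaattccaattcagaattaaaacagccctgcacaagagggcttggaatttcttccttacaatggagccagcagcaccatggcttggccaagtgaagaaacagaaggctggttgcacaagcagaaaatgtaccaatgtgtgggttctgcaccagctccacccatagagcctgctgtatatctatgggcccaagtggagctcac
Ear2: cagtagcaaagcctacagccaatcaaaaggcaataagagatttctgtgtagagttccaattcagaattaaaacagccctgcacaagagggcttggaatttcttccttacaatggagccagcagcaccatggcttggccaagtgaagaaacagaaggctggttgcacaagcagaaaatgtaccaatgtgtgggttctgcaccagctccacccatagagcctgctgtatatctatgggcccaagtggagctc
The Ear1 and Ear2 promoters were 97.6% identical, and the Ear2 level was 28.5 to 50.1 times the Ear1 level in treated M-MDSCs. No ratio is given for the other libraries, where Ear1 rests on an estimated 3 to 11 fragments. The Ear6 promoter was 78.2% identical to that of Ear1 and 77.3% to that of Ear2.

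**Figure D1:**
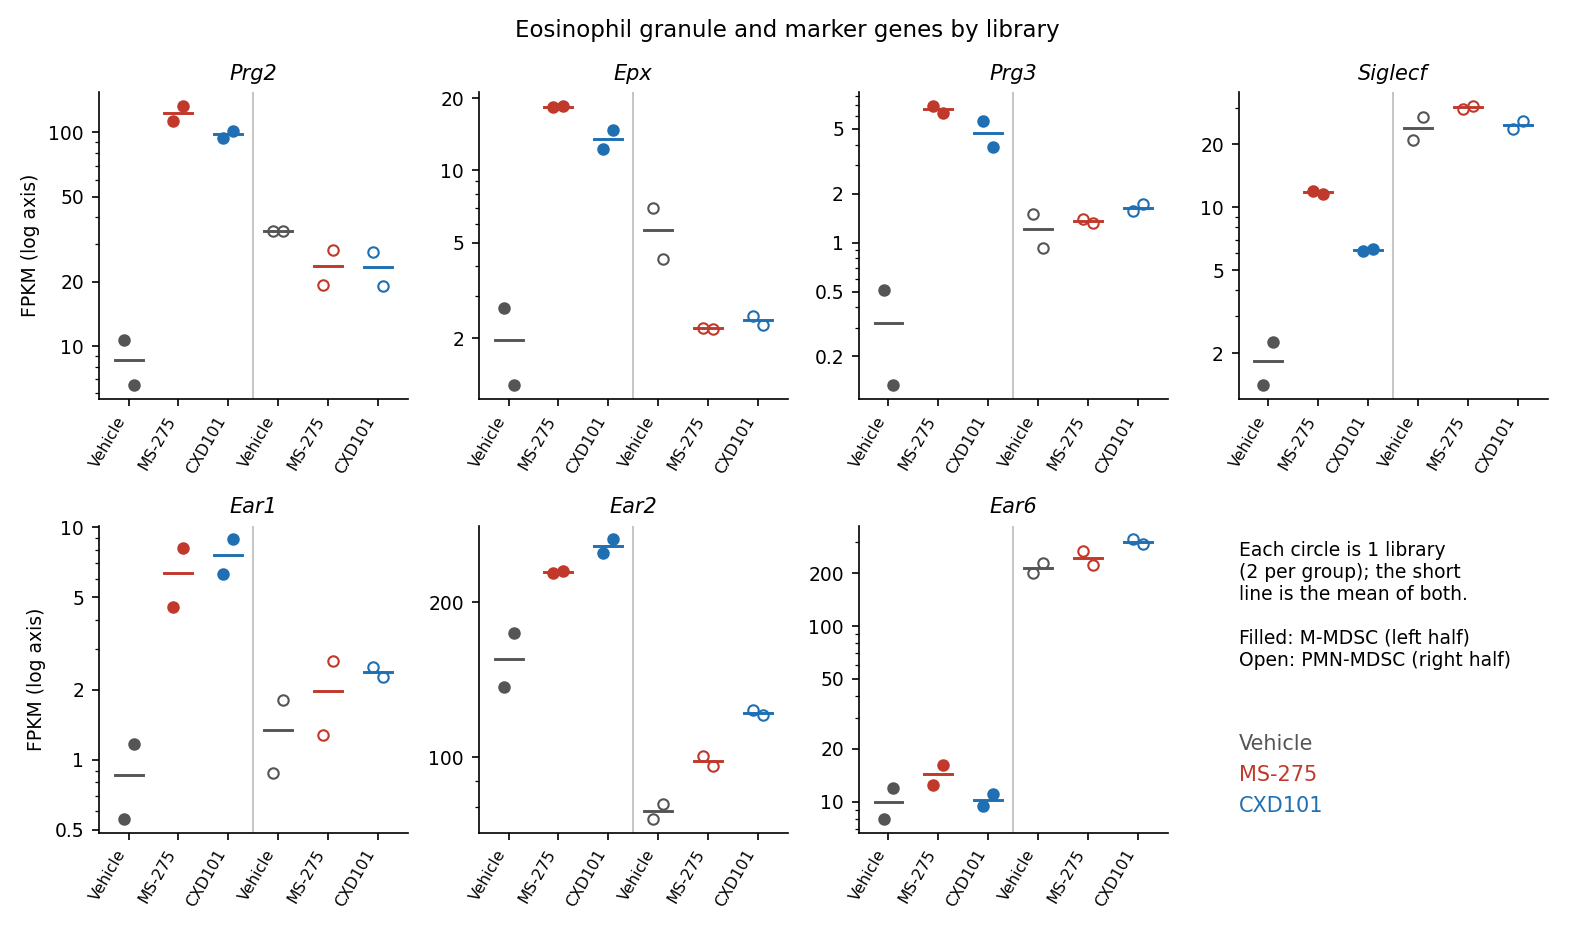
Level of the 7 genes in each of the 12 libraries, in FPKM on a log axis that differs between panels, with 2 circles per group and a line at their mean. Prg2, Epx and Prg3 are lowest in the vehicle M-MDSCs and highest in the treated M-MDSCs, with the PMN-MDSCs in between, except that the treated PMN-MDSCs overlap the vehicle M-MDSCs for Epx.

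Prg2, the core granule protein, showed the widest range. It stood at 10.6 and 6.56 FPKM in the vehicle M-MDSCs, at 113 and 133 under MS-275 and at 94.0 and 102 under CXD101. In PMN-MDSCs it stood at 34.5 and 34.7 FPKM with vehicle, at 19.3 and 28.3 with MS-275 and at 27.7 and 19.2 with CXD101. Both inhibitors thus went with higher Prg2 in M-MDSCs and lower Prg2 in PMN-MDSCs, and in neither subset did treated and vehicle libraries overlap. The ratio of group means was 14.3 for MS-275 and 11.4 for CXD101 in M-MDSCs, against 0.688 and 0.677 in PMN-MDSCs. On the log2(FPKM + 1) scale the differences were 3.72 ± 0.18 (SE, n = 2 per group) and 3.40 ± 0.18 in M-MDSCs, and −0.55 ± 0.20 and −0.57 ± 0.20 in PMN-MDSCs. The order of the subsets therefore turned over: in vehicle mice PMN-MDSCs held 4.03 times the Prg2 of M-MDSCs, and M-MDSCs held 5.18 times that of PMN-MDSCs under MS-275 and 4.18 times under CXD101. RNA from sorted bulk cells cannot tell a change in the number of Prg2-expressing cells from a change in the RNA per cell, here or for any gene below.

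Epx, the peroxidase, followed the same course at a lower level. The vehicle M-MDSCs had 2.68 and 1.28 FPKM, the MS-275 M-MDSCs 18.4 and 18.6, and the CXD101 M-MDSCs 12.2 and 14.8. The PMN-MDSCs went from 7.004 and 4.27 FPKM with vehicle to 2.21 and 2.19 with MS-275 and 2.48 and 2.27 with CXD101. Treated and vehicle libraries were again apart in both subsets, upward in M-MDSCs and downward in PMN-MDSCs. The means of treated M-MDSCs were 9.33 (MS-275) and 6.83 (CXD101) times vehicle, and those of PMN-MDSCs were 0.390 and 0.421 times vehicle. As log2(FPKM + 1) differences these were 2.75 ± 0.20 and 2.32 ± 0.20 in M-MDSCs and −1.02 ± 0.20 and −0.94 ± 0.20 in PMN-MDSCs. Treated PMN-MDSCs were left at a level that overlapped that of the vehicle M-MDSCs. The ratio of Prg2 to Epx was 3.97 and 5.14 in vehicle M-MDSCs, 4.92 and 8.12 in vehicle PMN-MDSCs, and 6.17 to 12.9 in the 8 treated libraries.

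Prg3, the homolog next to Prg2, matched Prg2 in M-MDSCs only. It was at 0.510 and 0.133 FPKM in the vehicle M-MDSCs, which the depth estimate puts at about 4 fragments and 1 fragment, and at 6.92 and 6.27 FPKM with MS-275 and 5.59 and 3.86 with CXD101. With so few vehicle fragments no fold is given, and the difference on the log2(FPKM + 1) scale was 2.54 ± 0.19 for MS-275 and 2.11 ± 0.19 for CXD101. In PMN-MDSCs Prg3 ranged from 0.928 to 1.72 FPKM over the 6 libraries, and the differences of 0.10 ± 0.17 and 0.26 ± 0.17 were close to their standard errors. The vehicle and MS-275 libraries overlapped there, and the MS-275 difference turned to −0.08 after quantile normalization and without vehicle library 2. Prg3 thus did not share the lower PMN-MDSC level of Prg2 and Epx in these values.

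Siglecf, the surface marker, was higher in treated M-MDSCs but stayed a PMN-MDSC transcript. Its M-MDSC values were 1.403 and 2.25 FPKM with vehicle, 12.01 and 11.6 with MS-275, and 6.15 and 6.28 with CXD101. In PMN-MDSCs they were 21.1 and 27.0 with vehicle, 29.6 and 30.6 with MS-275, and 23.7 and 25.8 with CXD101. The log2(FPKM + 1) differences were 2.19 ± 0.14 and 1.37 ± 0.14 in M-MDSCs, where the 3 groups were apart from each other, and 0.32 ± 0.12 and 0.05 ± 0.12 in PMN-MDSCs, where CXD101 overlapped vehicle and its difference turned to −0.12 without vehicle library 1. The excess of PMN-MDSCs over M-MDSCs narrowed from 13.2 times in vehicle mice to 2.55 times under MS-275 and 3.98 times under CXD101.

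The ribonucleases differed among themselves. Ear1 was low, at 0.559 and 1.17 FPKM in vehicle M-MDSCs (about 3 and 6 fragments), 4.55 and 8.10 with MS-275 and 6.28 and 8.86 with CXD101. In PMN-MDSCs Ear1 spanned 0.880 to 2.67 FPKM over the 6 libraries, and the MS-275 group overlapped vehicle. Its log2(FPKM + 1) differences were 1.95 ± 0.26 and 2.204 ± 0.26 in M-MDSCs and 0.33 ± 0.27 and 0.56 ± 0.27 in PMN-MDSCs. Ear1 thus kept company with the granule genes in M-MDSCs, though reads from its shared windows may belong to other genes.

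Ear2 was abundant and differed by small amounts in both subsets. M-MDSCs had 137 and 174 FPKM with vehicle, 228 and 231 with MS-275 and 248.8 and 265 with CXD101, and PMN-MDSCs had 75.9 and 80.9, then 100.5 and 96.2, then 123 and 121. All treated libraries lay above the vehicle libraries of their own subset. The differences were 0.57 ± 0.10 and 0.73 ± 0.10 in M-MDSCs and 0.32 ± 0.06 and 0.63 ± 0.06 in PMN-MDSCs, which is the same direction throughout. M-MDSCs held 1.98 to 2.33 times the Ear2 of PMN-MDSCs under the same treatment.

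Ear6 was a PMN-MDSC transcript with or without inhibitor. It had 201 and 228 FPKM in vehicle PMN-MDSCs, 267 and 221 with MS-275 and 311 and 293 with CXD101, against 8.03 to 16.2 FPKM over the 6 M-MDSC libraries. The log2(FPKM + 1) differences were 0.18 ± 0.10 and 0.49 ± 0.10 in PMN-MDSCs and 0.49 ± 0.18 and 0.05 ± 0.18 in M-MDSCs, and the CXD101 M-MDSC libraries overlapped the vehicle ones, with a difference of −0.21 without vehicle library 1. Because Ear2 and Ear6 favored opposite subsets, the ratio of Ear2 to Ear6 was 14.2 to 26.1 in M-MDSCs and 0.355 to 0.435 in PMN-MDSCs, and treatment shifted it little beside that gap.

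**Figure D2:**
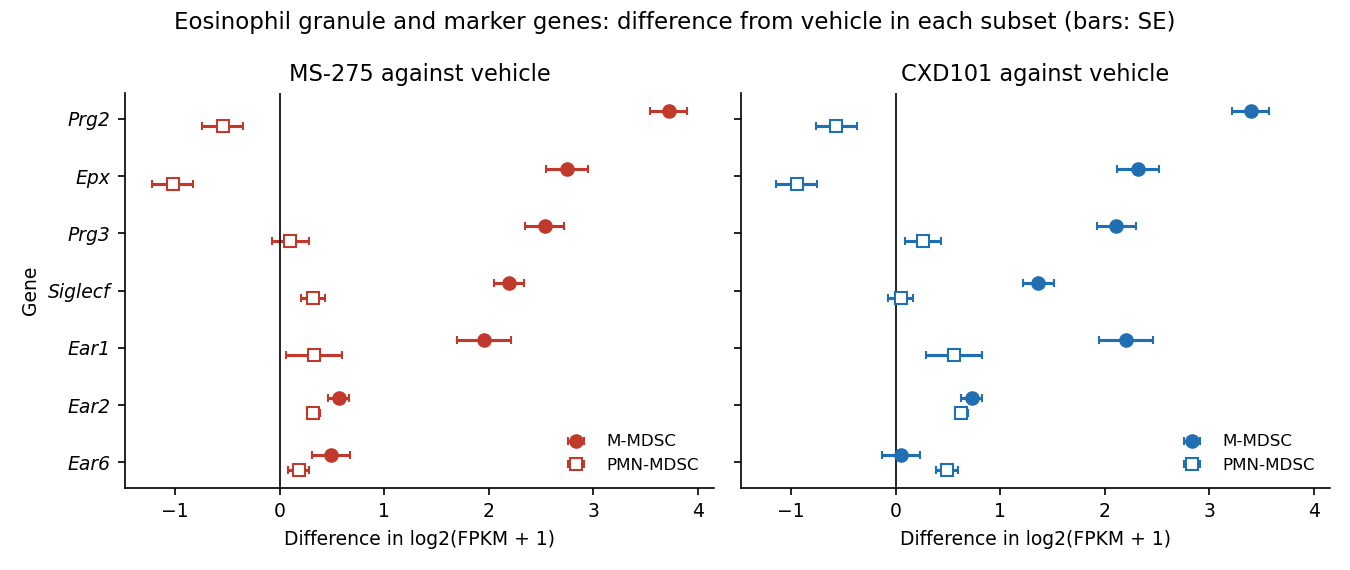
Difference between inhibitor and vehicle in log2(FPKM + 1) for each of the 7 genes, with filled circles for M-MDSCs, open squares for PMN-MDSCs and bars of 1 standard error. Prg2 and Epx lie right of 0 in M-MDSCs and left of 0 in PMN-MDSCs under both inhibitors, while the other 5 genes lie at or right of 0 in the values shown, although the MS-275 value of Prg3 in PMN-MDSCs is −0.08 after quantile normalization.

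Counts of members past the limits used across all genes (adjusted p of 0.05 in limma and a fold change of 1.5) are given for orientation, since the members were chosen on these contrasts. In M-MDSCs, MS-275 left 5 of the 7 past them as higher (Prg2, Prg3, Epx, Ear1 and Siglecf), where 10.1% of the 11078 genes tested were higher and 7.32% lower. CXD101 left 6, with Ear2 added, where 5.14% of the genes were higher and 3.0% lower. In PMN-MDSCs, MS-275 left Epx past them as lower and none as higher, where 14.6% of the 11184 genes tested were higher and 14.2% lower. CXD101 left Ear2 as higher and Epx as lower, with 11.9% and 9.54% of the genes. Prg2 missed the fold limit in PMN-MDSCs by a little, at a log2 difference of −0.55 and −0.57 against a limit of 0.58, and passed it on a scale that left out S100a8 and S100a9. All 7 passed the filter on low values (1 FPKM in at least 2 libraries of a subset), Prg3 in M-MDSCs only through treated libraries and Ear1 there with 1 vehicle library. The median log2 difference of the members was 2.19 and 2.11 in M-MDSCs and 0.18 and 0.26 in PMN-MDSCs, beside −0.06, −0.02, −0.03 and −0.03 over all genes tested. Both inhibitors were set against the same vehicle libraries.

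Between the inhibitors, the M-MDSC mean under MS-275 was 1.26 times that under CXD101 for Prg2, 1.37 times for Epx, 1.396 times for Prg3, 1.39 times for Ear6 and 1.90 times for Siglecf, with no overlap between the libraries of either inhibitor for these genes. Ear2 was lower under MS-275, at 0.893 times its CXD101 level, and Ear1 overlapped. In PMN-MDSCs the Prg2 libraries of the 2 inhibitors overlapped, as did those of Ear1. The MS-275 mean there was below the CXD101 mean without overlap for Epx (0.926 times), Prg3 (0.832 times), Ear2 (0.807 times) and Ear6 (0.810 times), and above it for Siglecf (1.21 times). The Prg3 ratio rests on an estimated 8 against 10 fragments per library, and that of Epx on 42.0 to 43.8 against 43.8 to 52.9. With 2 libraries a group, a lack of overlap is weak evidence, and its share over all genes was not counted. The differences between the inhibitors were not tested for the members.

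Opposite responses were rare among all genes. Of the 10648 genes tested in both subsets, 15 (0.141%) passed as higher in M-MDSCs and lower in PMN-MDSCs under MS-275, and 3 (0.0282%) did so under CXD101. Epx, which was chosen for this pattern, had the largest difference of both sets. Ckb, Hmgn3, Id3 and Prss34 came next under MS-275, and Gata2 was among the 15, while Gstm1 and Ccnd1 completed the CXD101 set. Ckb encodes the brain-type creatine kinase, Id3 an inhibitor of basic helix-loop-helix factors, Prss34 a serine protease of basophils and Ccnd1 cyclin D1. Ckb rose by 1.47 in M-MDSCs and fell by 1.16 in PMN-MDSCs under MS-275, a difference between the subsets of 2.63 (adjusted p = 5.4e-05, limma). For Gstm1, a glutathione transferase, the difference under CXD101 was 1.62 (adjusted p = 1.5e-06, limma). In the reverse direction, lower in M-MDSCs and higher in PMN-MDSCs, 11 genes (0.103%) passed under MS-275 and 3 (0.0282%) under CXD101. These included Ltf and Camp, which encode the secondary granule proteins lactoferrin and cathelicidin, with differences of −3.97 (adjusted p = 6e-07, limma) and −3.70 (adjusted p = 1.5e-05, limma) under MS-275, together with Scarna6, 2310010J17Rik and Hist1h4i. AA413626, AA467197 and Tgm1 passed under CXD101. Scarna6 passed the filter on low values only through vehicle libraries in M-MDSCs and treated libraries in PMN-MDSCs, so its call was in part set by the filter. The AA413626 call rests on low values. It had 2.37 and 0.987 FPKM in vehicle M-MDSCs and 0 in CXD101 M-MDSCs. In PMN-MDSCs it had 0 with vehicle and 1.74 and 0.638 with CXD101.

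Across all 12 libraries, the genes whose log2(FPKM + 1) ran most like that of Prg2 were Prg3 (Pearson r = 0.947) and Epx (r = 0.938), out of 9229 genes with at least 5 FPKM in 2 libraries. Mrpl24 (0.914), Id3 (0.898), Mt2 (0.897), Atp8b4 (0.882), Unc119b (0.873), Ear1 (0.870), Vps25 (0.863) and Mira (0.856) came next. The 12 libraries fall into 6 groups and share 2 vehicle sets, so these r values are a description. Prg3, Ear1 and Mira reached 5 FPKM only in treated M-MDSC libraries, where Prg2 was also highest. Their place in this order was therefore in part set by the filter.

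The other eosinophil genes were examined through 4 lists that held no member: other Ear ribonucleases, eosinophil receptors, lineage regulators and mediators, with 48 genes found. These lists are not specific to eosinophils. They include Chil3, a protein of macrophages and neutrophils, and Irf8, a monocyte factor, so the counts do not measure an eosinophil response. Only some of the listed genes followed the granule genes. The lists were chosen with earlier results of these data known, so their counts are not an independent test. In M-MDSCs, 30 were tested, and 13 rose and 5 fell under MS-275 while 9 rose and 4 fell under CXD101, or 3 and 2 without vehicle library 1. Over all genes the shares were 10.1% higher and 7.32% lower under MS-275 and 5.14% and 3.0% under CXD101. In PMN-MDSCs, 33 were tested, and 12 rose and 7 fell under MS-275 (4 fell without vehicle library 2) while 10 rose and 4 fell under CXD101, beside 14.6% higher and 14.2% lower over all genes under MS-275 and 11.9% and 9.54% under CXD101. Their median log2 difference was 0.48 and 0.23 in M-MDSCs and 0.29 and 0.31 in PMN-MDSCs. The difference in response between the subsets was tested in 1 model over 12 libraries, where 9.48% of all 11662 genes had a higher and 8.65% a lower response to MS-275 in M-MDSCs, and 6.59% and 7.31% to CXD101. Of the 33 listed genes 6 had a higher and 8 a lower response to MS-275 in M-MDSCs than in PMN-MDSCs, and 4 and 7 to CXD101.

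**Figure D3:**
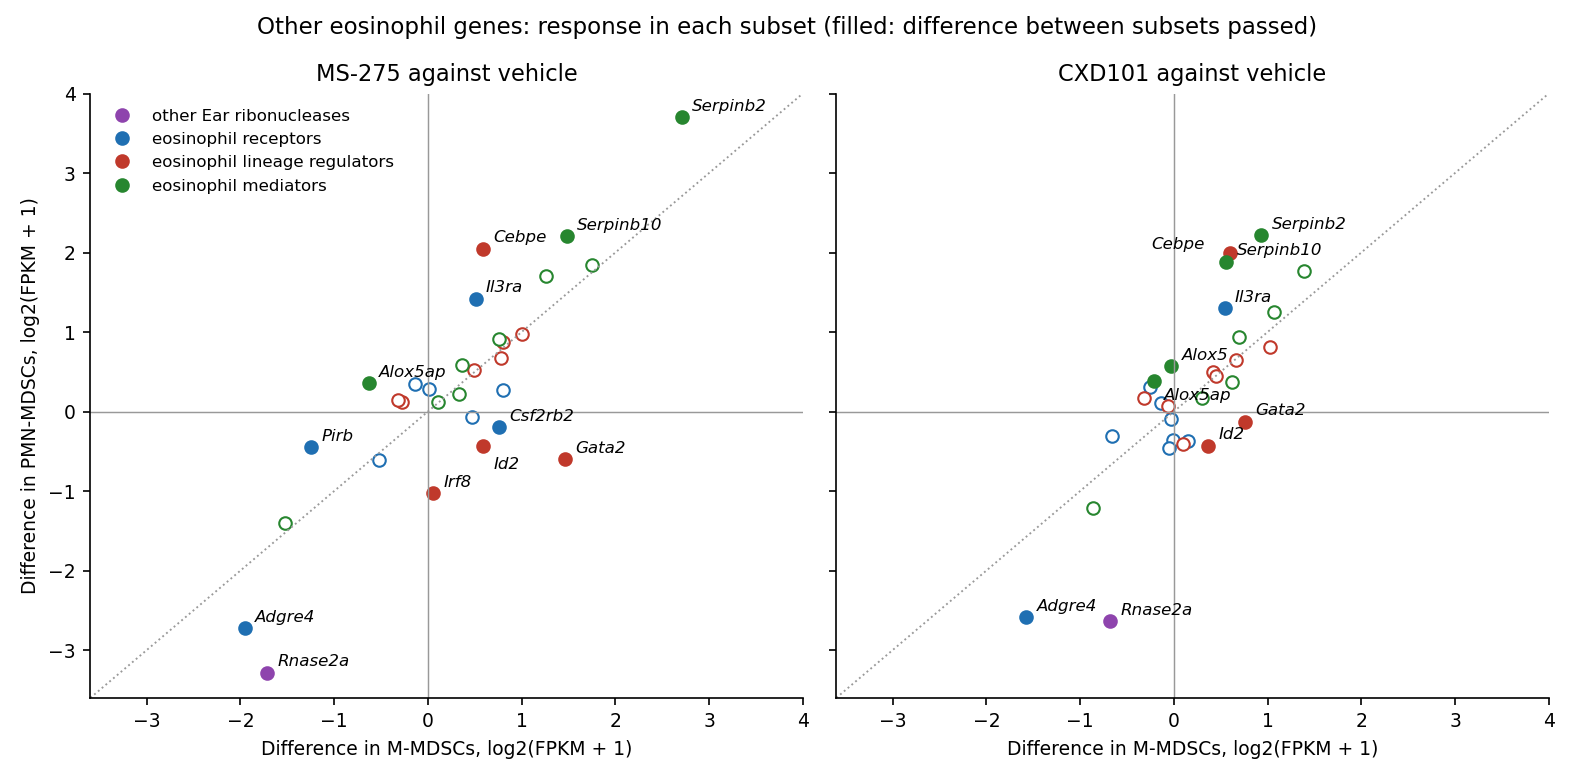
Difference from vehicle in M-MDSCs (x axis) and PMN-MDSCs (y axis), in log2(FPKM + 1), for the 30 listed eosinophil genes tested in both subsets, colored by list and filled and named where the response differed between the subsets in limma. Gata2 and Id2 lie below the dotted line of equal response with a positive M-MDSC value, and Cebpe, Il3ra, Serpinb2 and Serpinb10 lie above it.

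Among the lineage regulators, Gata2 came closest to the granule genes. Gata2, a GATA factor of progenitors, eosinophils, basophils and mast cells, stood at 0.188 and 0.327 FPKM in vehicle M-MDSCs, 2.58 and 2.33 with MS-275 and 0.863 and 1.42 with CXD101. Its PMN-MDSC values were 2.29 and 2.09 with vehicle, 0.774 and 1.51 with MS-275 and 2.23 and 1.65 with CXD101. In M-MDSCs it rose by 1.46 ± 0.17 (adjusted p = 0.0003, limma) and 0.76 ± 0.17 (adjusted p = 0.016), and in PMN-MDSCs it fell by 0.60 under MS-275 (SE 0.20, adjusted p = 0.039) and was −0.13 ± 0.20 under CXD101 (adjusted p = 0.64). The response differed between the subsets by 2.06 for MS-275 (adjusted p = 0.00039) and 0.89 for CXD101 (adjusted p = 0.037). The PMN-MDSC call is fragile. It was lost in 7 of 16 alternative settings, including without either vehicle library and without MS-275 library 1. The CXD101 call in M-MDSCs was lost in 4 of 16. The Gata2 values rest on an estimated 6.7 to 100.9 fragments per library. In M-MDSCs Gata2 passed the filter on low values only through treated libraries, so its rise there was in part set by the filter.

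Cebpe, the C/EBP factor needed for secondary granules of neutrophils and eosinophils, took the other course. It rose in all 4 comparisons, by 0.59 ± 0.15 and 0.60 ± 0.15 in M-MDSCs (adjusted p = 0.014 and 0.025, limma) and by 2.05 ± 0.08 and 1.99 ± 0.08 in PMN-MDSCs (adjusted p = 2.5e-06 and 4.3e-06). Its response was lower in M-MDSCs than in PMN-MDSCs by 1.46 (adjusted p = 0.00045) and 1.39 (adjusted p = 0.00087) on the log2 scale. The M-MDSC calls were lost without vehicle library 1. Cebpa, which acts earlier, rose by 0.82 to 1.02 in all 4, and Id1, an inhibitor of basic helix-loop-helix factors, by 0.65 to 0.78, although its CXD101 call in M-MDSCs was lost without vehicle library 1. Zfpm1, a cofactor of GATA factors, rose under MS-275 only, by 0.80 in M-MDSCs and 0.88 in PMN-MDSCs, with CXD101 values of 0.42 and 0.49 that did not pass. Id2 rose under MS-275 in M-MDSCs by 0.59 (lost without MS-275 library 1), and its response was higher there than in PMN-MDSCs under both inhibitors, by 1.02 and 0.79. Irf8, a monocyte factor, fell by 1.03 in MS-275 PMN-MDSCs (adjusted p = 0.0013), and its M-MDSC values of 0.06 and 0.09 did not pass. Gata1, the GATA factor that eosinophil commitment requires, was below 1 FPKM in every library and was not tested. In order of the groups (vehicle, MS-275, CXD101) it had 0.112 and 0.0584, 0.101 and 0.641, and 0.114 and 0.121 FPKM in M-MDSCs, and 0.132 and 0.0680, 0.308 and 0.583, and 0.480 and 0.604 FPKM in PMN-MDSCs.

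**Figure D4:**
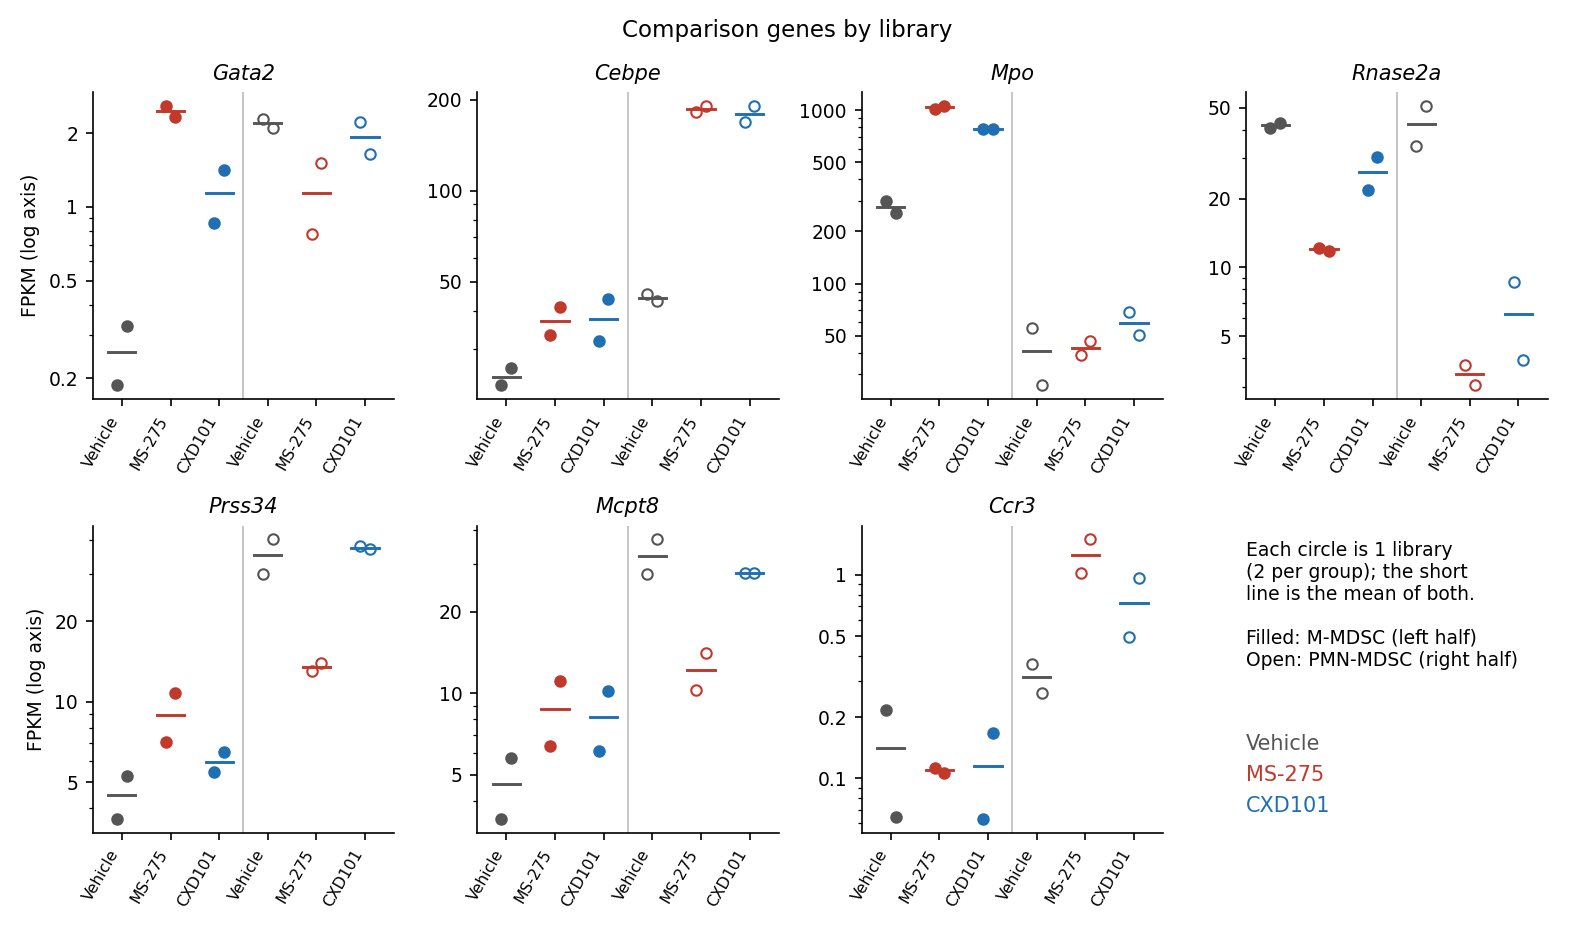
Level of 7 comparison genes in each library, in FPKM on a log axis that differs between panels, with 2 circles per group and a line at their mean. Gata2 and Mpo are higher in treated than in vehicle M-MDSCs, Cebpe is highest in treated PMN-MDSCs, and Rnase2a is lower in all 4 treated groups than in the vehicle group of the same subset.

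The receptors that define mature eosinophils were near 0. Ccr3, the eotaxin receptor, was at 0.0633 to 0.217 FPKM in all 6 M-MDSC libraries, an estimated 2 to 7 fragments, with treated and vehicle libraries overlapping. It was at 0.366 and 0.263 FPKM in vehicle PMN-MDSCs, 1.02 and 1.49 with MS-275, and 0.494 and 0.961 with CXD101, where it rose by 0.77 ± 0.21 under MS-275 (adjusted p = 0.014, limma), a call lost in 4 of 16 alternative settings. The Ccr3 response to MS-275 was lower in M-MDSCs than in PMN-MDSCs by 0.81 (adjusted p = 0.032, limma). Ccr3 passed the filter on low values only through the MS-275 PMN-MDSC libraries, so both results were in part set by the filter. Il5ra was listed between 0 and 0.111 FPKM in all 12 libraries, at most 3 estimated fragments, and could not be tested. In the treated M-MDSCs, Ccr3 had an estimated 2 to 5 fragments and Il5ra 0 to 3, so that a difference from vehicle was not detectable at this depth.

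Shared cytokine receptors behaved one by one. Csf2rb encodes the common beta chain for interleukin-3, interleukin-5 and GM-CSF, and Csf2rb2 a beta chain for interleukin-3 only. Both rose in M-MDSCs under MS-275, by 0.80 ± 0.05 and 0.75 ± 0.05. Their CXD101 values of −0.03 and −0.01 did not pass. Il3ra, the interleukin-3 receptor alpha chain, rose in PMN-MDSCs by 1.42 and 1.30 and had 0.51 and 0.54 in M-MDSCs, under the fold limit, so that its response was lower in M-MDSCs by 0.91 (adjusted p = 0.011, limma) and 0.76 (adjusted p = 0.03). Csf2ra, the GM-CSF receptor alpha chain, fell by 0.61 in MS-275 PMN-MDSCs, a call lost after quantile normalization. Adgre4, an adhesion G protein-coupled receptor, fell in all 4 comparisons, by 1.95 and 1.57 in M-MDSCs and by 2.72 and 2.59 in PMN-MDSCs, and its M-MDSC calls were lost without either vehicle library. Pirb, an inhibitory receptor, fell in M-MDSCs by 1.25 and 0.66, and Il1rl1, the interleukin-33 receptor, fell in PMN-MDSCs by 0.78 and 0.71, calls that were lost without vehicle library 2.

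Rnase2a, the further member of the ribonuclease family that could be tested, went against Ear1 and Ear2. It was at 41.0 and 42.7 FPKM in vehicle M-MDSCs, 12.2 and 11.8 with MS-275 and 21.9 and 30.3 with CXD101, and at 34.1 and 50.9 FPKM in vehicle PMN-MDSCs, 3.75 and 3.05 with MS-275 and 8.60 and 3.94 with CXD101. It fell in every comparison, by 1.72 (adjusted p = 3.1e-05, limma) and 0.68 (adjusted p = 0.0081) in M-MDSCs and by 3.28 (adjusted p = 9.9e-05) and 2.63 (adjusted p = 0.00043) in PMN-MDSCs. The CXD101 call in M-MDSCs was lost without CXD101 library 1 and with all 12 libraries in 1 model. Its coding sequence was 77.2% to 79.7% identical to those of the 3 Ear members, and none of its 101-base windows occurred in another gene. Of the 7 further ribonucleases found, Ear4, Ear7, Ear10 and Ear14 were listed at 0 in every library, and Ear3 and Rnase2b were under 1 FPKM.

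Of the mediators tested, 5 of 10 rose in M-MDSCs under either inhibitor, where 2 fell under MS-275 and 1 under CXD101, and 6 of 11 rose and 1 fell in PMN-MDSCs under either inhibitor. Over all genes in M-MDSCs, 10.1% were higher and 7.32% lower under MS-275, and 5.14% and 3.0% under CXD101. In PMN-MDSCs these shares were 14.6% and 14.2% under MS-275 and 11.9% and 9.54% under CXD101. Chil3, a chitinase-like protein of macrophages and neutrophils, rose by 1.26 and 1.39 in M-MDSCs and 1.70 and 1.77 in PMN-MDSCs, and Chil4 by 0.70 to 0.94 in all 4, with M-MDSC calls that were lost after quantile normalization. Thbs1, thrombospondin 1, rose by 1.76 and 1.07 in M-MDSCs and 1.84 and 1.26 in PMN-MDSCs. The serpin genes Serpinb2 and Serpinb10 rose more in PMN-MDSCs, to a response in M-MDSCs that was lower by 0.99 and 1.28 for Serpinb2 and by 0.72 and 1.32 for Serpinb10, although the Serpinb10 value of 0.56 in CXD101 M-MDSCs did not pass. Alox15, an eosinophil lipoxygenase, rose in PMN-MDSCs by 1.35 and 0.89, and it stayed under 1 FPKM in M-MDSCs. Alox5ap, the 5-lipoxygenase-activating protein, fell by 0.63 in MS-275 M-MDSCs and had 0.36 in PMN-MDSCs, a fall that did not pass after quantile normalization or scaling to equal sums without S100a8 and S100a9, and Ltc4s, the leukotriene C4 synthase, rose by 0.62 in CXD101 M-MDSCs. Il6 fell in all 4 comparisons, by 0.87 to 1.52. Without vehicle library 1 the calls of Ltc4s, Il6, Chil4 and Serpinb2 in CXD101 M-MDSCs were lost, as were those of Il6 and Chil4 in PMN-MDSCs under both inhibitors. Il5 was listed at 0 in every library, and Il4 and Il13 were under 1 FPKM in every library.

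Genes of other cells moved in the same libraries. The 11 basophil and mast cell markers summed to 22.6 and 27.6 FPKM in vehicle M-MDSCs, 55.4 and 67.7 with MS-275 and 44.3 and 47.9 with CXD101. In PMN-MDSCs they summed to 108 and 135 FPKM with vehicle, 103 and 109.5 with MS-275 and 153 and 156 with CXD101. Single genes differed from these sums. In PMN-MDSCs the Kit mean was 16.4 FPKM with vehicle, 45.3 with MS-275 and 48.3 with CXD101, and Cyp11a1 had 14.3, 25.1 and 22.2. The Mcpt8, Cpa3 and Hdc means there were below vehicle under both inhibitors, and Prss34 had 35.2, 13.5 and 37.6. In M-MDSCs 4 of the 6 tested rose under MS-275 and 2 under CXD101, Kit and Cyp11a1 among them in both. The shares higher over all genes there were 10.1% and 5.14%. In PMN-MDSCs under MS-275, Mcpt8, Cpa3, Prss34 and Fcer1a fell, by 1.33, 2.19, 1.31 and 0.71, and Kit and Cyp11a1 rose. Under CXD101 none of the 8 tested fell, and Mcpt8 (−0.19 ± 0.17), Cpa3 (−0.63 ± 0.24) and Prss34 (0.11 ± 0.13) did not pass. Over all genes in PMN-MDSCs, 14.6% were higher and 14.2% lower under MS-275, and 11.9% and 9.54% under CXD101. Of this list, Tpsab1 was listed at 0 in every library, and Cma1 and Tpsb2 at 0 in every M-MDSC library. Their part in the Prg2 and Epx values was not tested.

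Neutrophil granule genes also moved in these libraries. The 8 primary granule markers, Mpo among them, summed to 1919 and 1968 FPKM in vehicle M-MDSCs, 5079 and 5434 with MS-275 and 4384 and 4571 with CXD101, and to 205 to 501 FPKM over the 6 PMN-MDSC libraries. Mpo rose in M-MDSCs by 1.90 and 1.49 (adjusted p = 1.7e-06 and 2.3e-05, limma) and did not pass in PMN-MDSCs (0.16 ± 0.31 and 0.61 ± 0.31). Elane, the neutrophil elastase, rose in all 4, by 2.29 and 1.87 in M-MDSCs and by 1.60 and 1.28 in PMN-MDSCs. The secondary and tertiary granule markers summed to 6680.3 and 7427 FPKM in vehicle PMN-MDSCs, 32377 and 32772 with MS-275 and 38212 and 38734 with CXD101. Mmp9 went against this sum, with means of 1061, 675 and 709 FPKM. S100a8 and S100a9 alone made up 10.2% and 13.7% of all FPKM in vehicle PMN-MDSCs and 27.3% to 30.9% in treated ones. Scaled to equal sums without these 2 genes, Epx in PMN-MDSCs differed from vehicle by −1.06 and −0.97, and Prg2 by −0.59 under both inhibitors.

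The 8 macrophage markers summed to 242 and 247 FPKM in vehicle M-MDSCs, 122 and 126 with MS-275 and 200.1 and 221 with CXD101, and to 261 and 289, 112 and 121, and 130 and 141 FPKM in PMN-MDSCs. Not every marker followed the sum. The Marco mean went from 10.2 to 21.5 FPKM in CXD101 M-MDSCs, and the Apoe mean from 15.1 to 48.2 FPKM in MS-275 PMN-MDSCs. The 6 progenitor markers summed to 29.7 and 29.9 FPKM in vehicle M-MDSCs, 129 and 134 with MS-275 and 80.7 and 82.5 with CXD101. Of the 5 tested there, 4 rose and Meis1 fell under both inhibitors (by 0.65 and 0.68), and Flt3 stayed under 1 FPKM. Over all genes there, 10.1% were higher and 7.32% lower under MS-275, and 5.14% and 3.0% under CXD101. In PMN-MDSCs the progenitor sum was 9.85 and 11.1 FPKM with vehicle, 36.2 and 39.9 with MS-275 and 27.1 and 30.4 with CXD101. Of the 3 tested 3 rose under MS-275 and 2 under CXD101, beside 14.6% and 11.9% of all genes. Of the markers of the sort, Itgam was at 257 to 285 FPKM in M-MDSCs and 825 to 895 in PMN-MDSCs, Ccr2 was higher in M-MDSCs, and Cxcr2 was higher in PMN-MDSCs (80.8 to 327 FPKM) but stood at 2.81 and 3.11 FPKM in vehicle M-MDSCs against 20.8 and 19.7 with MS-275 and 8.005 and 7.75 with CXD101. Ly6g, a marker of the sort, was not found by symbol among the genes listed, so its level could not be checked. Markers of lymphocytes, hepatocytes and red cells summed to 1.72 to 4.66 FPKM. The part of any of these cell types in the values of the members was not tested.

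**Figure D5:**
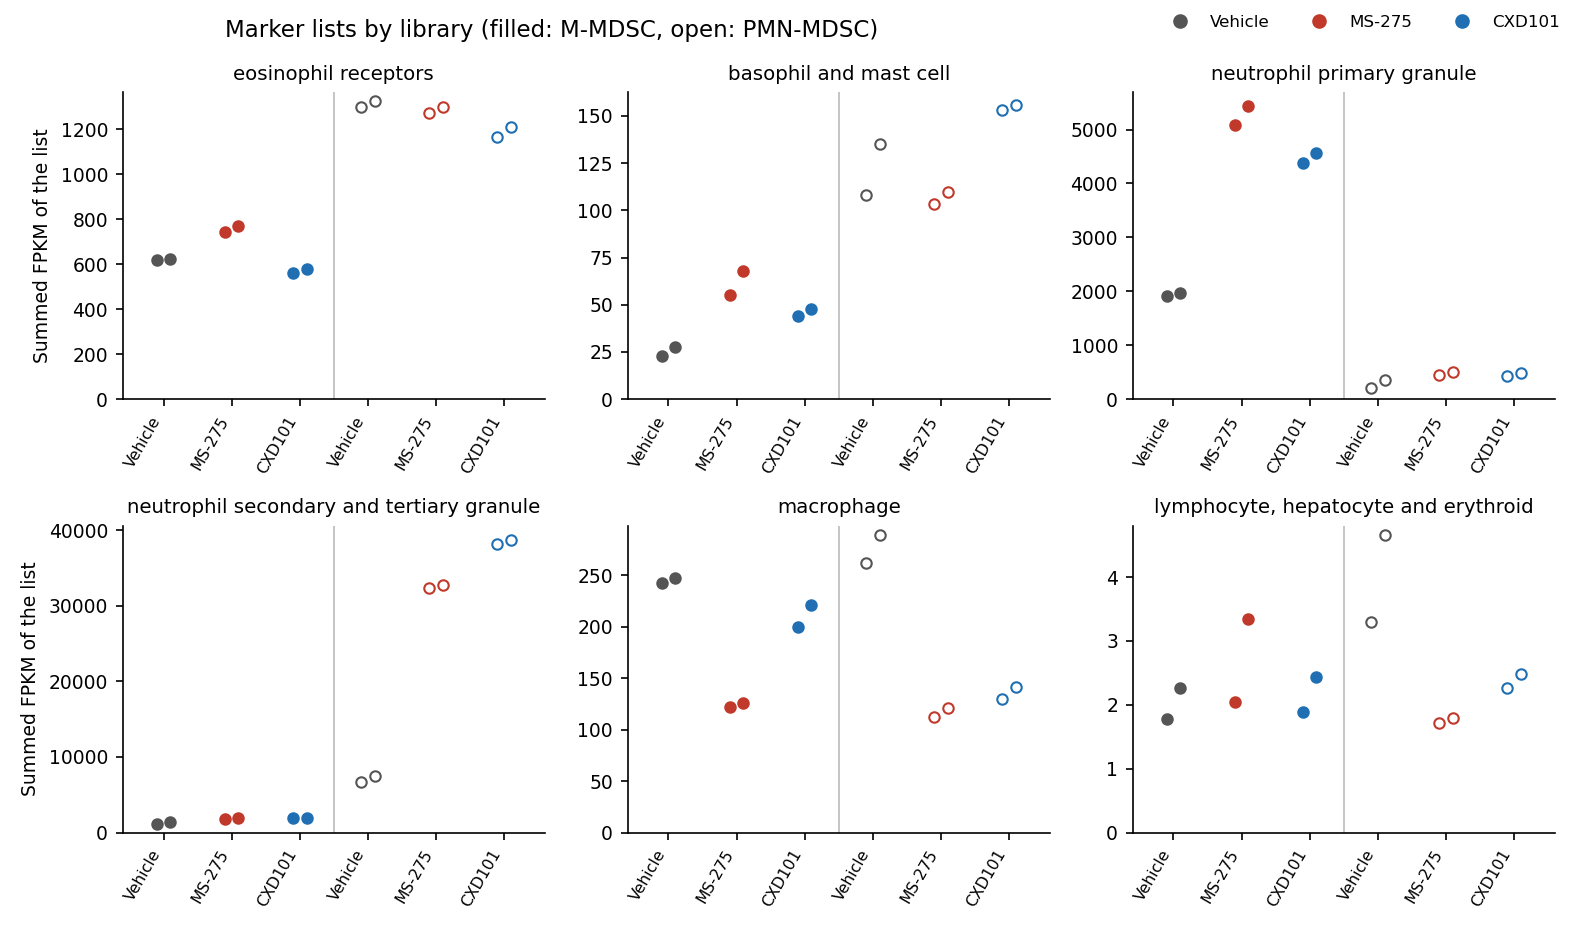
Summed FPKM of 6 marker lists in each library, on linear axes from 0 that differ between panels, with filled circles for M-MDSCs, open circles for PMN-MDSCs and colors for vehicle, MS-275 and CXD101. The basophil and mast cell and primary granule sums are higher in treated M-MDSCs, and the secondary and tertiary granule sum is at least 32377 FPKM in treated PMN-MDSCs. Most of the basophil and mast cell sum in treated M-MDSCs is Kit and Cyp11a1.

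Among the other sialic acid-binding receptors, Siglece and Siglecg rose in both subsets with both inhibitors, by 1.15 and 0.77 and by 1.002 and 1.14 in M-MDSCs, and by 0.85 and 0.63 and by 0.64 and 0.88 in PMN-MDSCs. Cd33 rose in PMN-MDSCs under MS-275 by 0.69. Siglec1, a macrophage receptor, rose by 0.64 in CXD101 M-MDSCs and fell by 0.90 in MS-275 PMN-MDSCs, and Cd22 fell by 0.59 there. The Siglecf difference in MS-275 M-MDSCs, 2.19, lay above those of the 5 other family members tested in M-MDSCs, of which Mag had −0.54 and did not pass the fold limit.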

How the data were processed

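RNA-seq was performed on M-MDSCs and PMN-MDSCs sorted from tumors, with stranded mRNA libraries read as 101-base single ends, 12 libraries in 6 groups of 2 by the labels. The deposited values are FPKM per gene, made by the authors. The submitters' processing notes name TopHat2 2.1.1, Bowtie2 2.2.8, SAMtools 0.1.18, Cuffdiff 2.2.1 and mm10, and the gene annotation and the strand setting of the counting are not given in the sources used here. Read counts were not used here, and depth was estimated from the spacing of values up to 0.5 FPKM in single-transcript genes of at least 1000 bp, assuming fragments of 200 bp.

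Values were taken as log2(FPKM + 1), which understates changes of low genes, for genes with at least 1 FPKM in at least 2 libraries. Some listed genes passed only through the group where they were high, so their calls were in part set by this filter. Among them were Gata2 in M-MDSCs, Ccr3 in PMN-MDSCs, Chil4 through treated libraries, and Adgre4 and Il6 through vehicle libraries. Each subset was fitted over its 6 libraries with limma 3.58.1 in R 4.3.3 (intensity trend, two-sided moderated test, Benjamini-Hochberg adjustment over all genes tested), and the response was compared between subsets in 1 model over 12 libraries. A call needed an adjusted p of 0.05 and a fold change of 1.5, after the study's methods. The scripts were tested on simulated data. The members and lists were chosen with earlier results of these data known. Named genes were the 7 members, listed genes called in at least 1 contrast, Ccr3, Il5ra, Gata1, Gata2, Cebpe and Mpo, the opposite calls with the largest difference (up to 10 per inhibitor) and the 10 genes nearest to Prg2. Marker genes of other cells, the Siglec family and the sorting markers were described beyond this rule, and those named were chosen after their values were seen.

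Alternatives were a pseudocount of 0.1, no filter or one of 5 FPKM, a fold change of 2, median-of-ratios scaling, quantile normalization, equal sums without S100a8 and S100a9, no trend, other sets of libraries in the model, a replicate block and leaving out each library. Same-numbered libraries did not deviate together, so the numbers were not taken as pairs. Whether they came from the same tumor is not settled by this. Promoters came from RefSeq on GRCm38.p6 and gene positions from GENCODE on GRCm38, read with Biopython 1.88.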

Additional observations from a re-analysis of the deposited data

Results flagged for a closer look

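Responses that differed between the subsets are given as the log2(FPKM + 1) response in M-MDSCs minus that in PMN-MDSCs. The difference was tested as an interaction term in limma for genes outside the members, and all values below passed the limits. A higher response in M-MDSCs was found under MS-275 for Gata2 (2.06), Rnase2a (1.56), Irf8 (1.08), Id2 (1.02), Csf2rb2 (0.95) and Adgre4 (0.77). Under CXD101 it was found for Rnase2a (1.95), Adgre4 (1.01), Gata2 (0.89) and Id2 (0.79). For Rnase2a and Adgre4 this is a smaller fall in M-MDSCs, not a rise. The Irf8 mean under MS-275 went from 35.5 to 36.9 FPKM in M-MDSCs and from 13.9 to 6.16 in PMN-MDSCs. The Id2 mean in PMN-MDSCs was 146 FPKM with vehicle and 108 with either inhibitor.

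A lower response in M-MDSCs was found under MS-275 for Cebpe (−1.46), Alox15 (−1.28), Alox5ap (−0.99), Serpinb2 (−0.99), Il3ra (−0.91), Ccr3 (−0.81), Pirb (−0.80) and Serpinb10 (−0.72). Under CXD101 it was found for Cebpe (−1.39), Serpinb10 (−1.32), Serpinb2 (−1.28), Alox15 (−0.92), Il3ra (−0.76), Alox5 (−0.60) and Alox5ap (−0.59). The Pirb mean was lower in both subsets under MS-275, from 92.5 to 38.4 FPKM in M-MDSCs and from 191 to 140 in PMN-MDSCs.

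For Prg2 and Epx, every treated M-MDSC library lay above, and every treated PMN-MDSC library below, the vehicle libraries of its subset. How many of all genes share this pattern was not counted. The difference was 4.27 under MS-275 and 3.96 under CXD101 for Prg2, and 3.77 and 3.27 for Epx. It was not tested, since these genes were chosen for it.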

How the results depend on the processing

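No alternative turned the direction of Prg2 or Epx in either subset. Values near 0 did turn: Ear6 in CXD101 M-MDSCs spanned −0.21 (without vehicle library 1) to 0.32, with −0.05 without CXD101 library 2. Prg3 in MS-275 PMN-MDSCs was −0.078 after quantile normalization and spanned −0.084 (without vehicle library 2) to 0.29, Ear1 there −0.012 (without MS-275 library 2) to 0.67, and Siglecf in CXD101 PMN-MDSCs −0.12 to 0.22, with −0.01 without CXD101 library 2. The cause was not tested. With a fold change of 2, the other eosinophil genes called higher came to 6 (MS-275) and 3 (CXD101) in M-MDSCs and 7 and 6 in PMN-MDSCs, and those called lower to 1 in CXD101 M-MDSCs and 4 in MS-275 PMN-MDSCs. No member then passed in either direction (0 and 0) in CXD101 PMN-MDSCs, and the lower responses in M-MDSCs came to 2 and 3 and the higher CXD101 responses to 2. With at least 5 FPKM required, fewer genes were tested, and 3 and 2 other genes were lower in M-MDSCs and 4 and 2 in PMN-MDSCs, with 0 members lower there under both inhibitors. Scaling to equal sums without S100a8 and S100a9 left 2 members lower in PMN-MDSCs under both inhibitors, and a pseudocount of 0.1 left 5 lower MS-275 responses in M-MDSCs.

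Leaving out 1 library at a time gave 3 to 9 other genes higher and 2 to 4 lower in CXD101 M-MDSCs, 4 to 7 lower in MS-275 PMN-MDSCs, 1 to 2 members lower in PMN-MDSCs under both inhibitors, and 0 to 1 higher under CXD101. Same-numbered libraries correlated by −0.14 to 0.09 in their deviations within a subset and by −0.13 to 0.18 over all 6 groups. The numbers were therefore not taken as pairs. These correlations cannot settle whether same-numbered libraries came from the same tumor, since each group had only 2 libraries. With a replicate block, 13 other genes rose and 5 fell under MS-275 in M-MDSCs, and the Gata2 call in MS-275 PMN-MDSCs was lost. With 2 libraries a group, levels under 1 FPKM rest on few fragments.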
